A study of Mus musculus with 33 samples.

Results

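Chromatin occupancy of Mef2c was compared between cells that received Gata4, Mef2c and Tbx5 together and cells that received Mef2c alone. The libraries were chosen by factor and setting from the sample labels: the 4 Mef2c libraries of cells with all 3 factors, numbered 2 to 5, and the 3 libraries of cells with Mef2c alone, numbered 1 to 3, out of 33 libraries in the series. The readout was chromatin immunoprecipitation followed by sequencing (ChIP-seq), in which DNA bound by a protein is recovered with an antibody and sequenced. Both groups were made from an immortalised line of neonatal cardiac fibroblasts of the Cd-1 strain that carries the alpha-MHC-GFP reporter and expresses large T antigen. Both were infected with retroviruses, kept with sb431542 and xav939, which inhibit Tgf-beta and Wnt signalling, and harvested unsorted at day 2. The labels name this 1 line as the source of all libraries and give no promoter for the retroviral factors. Both used the same rabbit monoclonal antibody to Mef2c.

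Mef2c belongs to the MEF2 family of MADS-box transcription factors, which bind A/T-rich elements as dimers and drive muscle and heart genes. Gata4 is a zinc-finger factor that binds GATA elements, and Tbx5 is a T-box factor. All of them are needed for heart development, and their forced expression converts fibroblasts toward a cardiomyocyte-like state. They are known to bind neighbouring sites at cardiac enhancers and to contact each other there. The comparison asks where Mef2c sits when it acts by itself and where it sits when its partners are present.

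The deposited table covered 30815 regions in mm9 coordinates, with a median length of 234 bp and a range of 201 to 1484 bp. Mef2c libraries held 383071, 1191612, 1719411 and 2377616 counts over these regions with all 3 factors (numbers 2 to 5), and 918300, 968131 and 941189 counts with Mef2c alone (numbers 1 to 3). The pairwise correlation of log2 CPM over regions was 0.76 to 0.92 within the libraries with all 3 factors, 0.93 to 0.94 within those with Mef2c alone, and 0.42 to 0.65 between the groups. The libraries with Mef2c alone were more concentrated. The tenth of regions with most counts held 36.9, 44.5, 44.1 and 40.1% of the counts with all 3 factors, against 55.5, 55.2 and 55.7% with Mef2c alone and 20.3 to 25.8% in inputs. Counts on the Y chromosome were 0, 14, 3 and 0 in the libraries with all 3 factors and 8, 8 and 5 in those with Mef2c alone. The groups may thus differ in the cells they were made from, which cannot be told apart from the setting. Results with number 3 as the only library of its group are given where they bear on a count.

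Mef2c occupancy differed between the settings at many regions in both directions. Of 19391 regions that passed a filter on low counts, 11648 (60.1%) were called by edgeR's quasi-likelihood test at a Benjamini-Hochberg adjusted p under 0.05. With no filter, 11420 of 30814 were called, so the share depends on which regions are tested. Mef2c was higher with all 3 factors at 6071 regions (31.3%), where the median log2 fold change over Mef2c alone was 1.91. It was lower at 5577 regions (28.8%), where the median was -1.38. The median of all tested regions was 0.15. All samples with all 3 factors lay above all samples with Mef2c alone at 88.7% of the higher regions and below them at 89.2% of the lower regions, where over all tested regions these shares were 30.5% and 27.7%. In all, 2789 higher and 1117 lower regions lay beyond 2 on the log2 scale. At 1016 of the higher regions, the libraries with Mef2c alone had under 10 counts in sum. With number 3 as the only library with all 3 factors, 9787 regions were called, in a fit whose spread comes from the 3 libraries with Mef2c alone only and which assumes that the lone library varies like them. That fit used number 3 and the 3 libraries with Mef2c alone that had also entered the calls above. It is thus no separate test of those calls. The share of calls that were higher depended on the scaling: it was 52.1% here, 64% when libraries were scaled by their totals, and 38.7% when regions of low counts were kept.

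Occupancy itself was defined against input chromatin. A region was counted as occupied where the ChIP group was called above all inputs by the same test. Inputs were the 6 libraries of cells with all 3 factors, counted as 3 samples because some agreed within sampling noise, and 1 library for each factor alone. With all 3 factors, 73.7% of 23283 tested regions were called, with Mef2c above input at 8885 (38.2%) and below it at 8274 (35.5%). With Mef2c alone, 73.3% of 27784 tested regions were called, with Mef2c above input at 9326 (33.6%) and below it at 11043 (39.7%). The comparisons share the inputs, so their overlap was used only to sort regions: 6867 were occupied in both settings, 2018 with all 3 factors only and 2459 with Mef2c alone only. With library totals as the scaling, 5522 regions with all 3 factors and 5907 with Mef2c alone were above input, so the occupied sets depend on how depth is set.

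The higher and the lower regions differed in what they held. Of the 5577 lower regions, 5126 (91.9%) were sites that Mef2c occupied when alone, and 3124 of them were still above input with all 3 factors. Among the higher regions, 2814 (46.4%) were occupied with all 3 factors, of which 1992 were not above input with Mef2c alone. The remaining 3257 (53.6%) were above input in neither setting. With library totals for both occupancy and comparison, 2996 of 4256 lower regions (70.4%) were occupied with Mef2c alone, and 1973 of 7566 higher regions (26.1%) were occupied with all 3 factors. These statements reuse the Mef2c libraries of the comparison and are descriptive. Higher regions were wider (median 294 bp) than lower regions (230 bp). The mean log2 CPM of a higher region was 4.73 at the median, and that of a lower region was 6.14.

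The count shares show the same division. Regions that were higher and occupied with all 3 factors took 21.6 ± 1.25% of the counts with all 3 factors (SD, n = 4) and 5.25 ± 0.433% with Mef2c alone (n = 3), where inputs had 10.6 ± 0.471% (n = 6). Higher regions that were not occupied took 8.08 ± 1.16% with all 3 factors and 1.83 ± 0.0912% with Mef2c alone, both under the 12.6 ± 0.79% of the inputs. At the lower regions, the shares with all 3 factors were 25.6, 31.1, 34.6 and 28.6%, and those with Mef2c alone were 62.4, 60.5 and 61.3%. Inputs had 18.2 ± 0.831% there. The lower regions thus kept a larger share of Mef2c counts than of input counts with all 3 factors, and at the 3257 unoccupied higher regions both Mef2c groups had smaller shares than the inputs. After TMM scaling, the median log2 enrichment over input at those 3257 regions was 0.29 ± 0.23 with all 3 factors and -1.04 ± 0.08 with Mef2c alone. Over all tested regions it was 0.88 ± 0.38 and 0.89 ± 0.02. Part of any count gained at one set is a count lost at another, because shares add up to a whole.

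**Figure D1:**
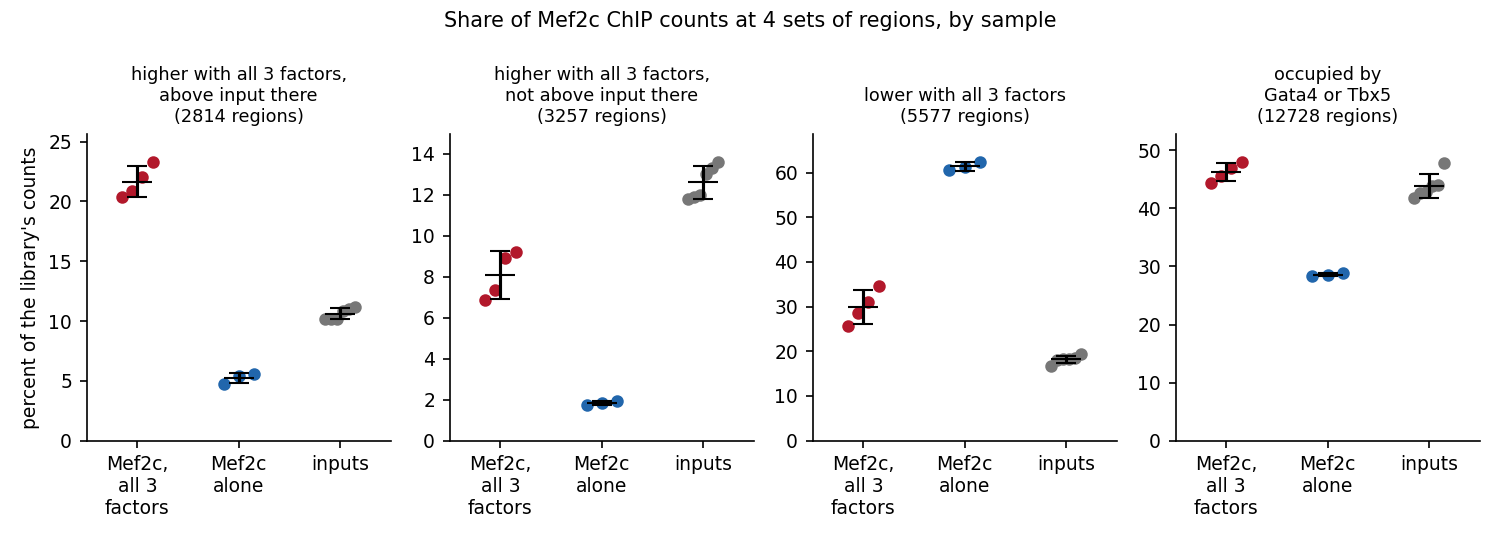
Percent of each library's counts at 4 sets of regions, for Mef2c ChIP with all 3 factors (4 samples), Mef2c ChIP with Mef2c alone (3 samples) and inputs (6 samples); points are samples and bars are the mean ± SD. At the 2814 higher regions that were occupied, the samples with all 3 factors lie above the inputs and those with Mef2c alone below them, and at the 3257 others both lie below. The first 3 sets were chosen from the same Mef2c libraries; the fourth was not.

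Where Gata4 and Tbx5 sat gave a division that did not use Mef2c libraries. Each region was sorted by whether Gata4 and Tbx5 were above input in cells with all 3 factors. Regions with at least one of them numbered 12728, or 41.3% of the table. They held 45.6, 47, 44.4 and 48% of Mef2c counts with all 3 factors (numbers 2 to 5), against 28.5, 28.9 and 28.4% with Mef2c alone. The groups did not overlap, and the inputs, at 41.8 to 47.8%, lay at the level of the samples with all 3 factors. The means were 46.3 ± 1.58% with all 3 factors (SD, n = 4) and 28.6 ± 0.236% with Mef2c alone (n = 3), which differed by a two-sided exact permutation test (p = 0.0286, the smallest that 4 against 3 samples allow; 0.0358 after Benjamini-Hochberg adjustment over the 5 shares compared). Relative to input, counts of Mef2c alone were fewer at regions of Gata4 and Tbx5, and those of Mef2c with its partners were at the input level. Within these regions, those with both partners held 18.5 ± 0.838% of Mef2c counts with all 3 factors and 9.93 ± 0.164% with Mef2c alone. Regions of Tbx5 only held 19.5 ± 0.429% with all 3 factors and 12.2 ± 0.115% with Mef2c alone. Both of these differences had an exact permutation p = 0.0286 (adjusted 0.0358). Regions of Gata4 only held 8.87, 8.84, 7.14 and 8.57% with all 3 factors and 6.45, 6.66 and 6.44% with Mef2c alone. The groups did not overlap there either, but the difference of means missed the threshold (8.35 ± 0.821% and 6.52 ± 0.121%, exact permutation p = 0.0571, adjusted 0.0571). Regions with neither partner held the rest, 53.7 ± 1.58% with all 3 factors and 71.4 ± 0.236% with Mef2c alone. This share is the complement of the first, though it counts among the 5 adjusted. Its exact permutation p = 0.0286 (adjusted 0.0358) is thus the same result and not a further one.

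Region by region, Mef2c was called higher more often than lower at regions that held both Gata4 and Tbx5, and most of the regions where it was lower held neither. Of 3175 tested regions with both partners, 1932 (60.9%) were called higher and 131 (4.13%) lower, with a median log2 fold change of 1.26, which is 1.11 above the median of all regions. Of 4197 regions with Tbx5 only, 1703 (40.6%) were higher and 204 (4.86%) lower (median 0.65). Of 1619 regions with Gata4 only, 529 (32.7%) were higher and 159 (9.82%) lower (median 0.50). Of 10400 regions with neither, 1907 (18.3%) were higher and 5083 (48.9%) lower (median -0.72). Over all tested regions 31.3% were higher and 28.8% lower, so with Gata4 only the higher share was near that of all regions. Seen from the calls, the higher regions were spread over the classes, with 31.8% holding both partners and 31.4% neither, whereas 91.1% of the lower regions held neither. In all, 68.6% of the higher regions and 8.86% of the lower regions held Gata4 or Tbx5, against 46.4% of all tested regions. The share among higher regions differed with Mef2c occupancy. It was 75.5% at the 3257 that Mef2c occupied in neither setting. At the 2814 occupied in cells with all factors it was 60.6%, where 39.4% held neither partner and 28.6% both. Among all regions occupied in those cells, 36.9% held Gata4 or Tbx5. These occupied sets were chosen with the compared Mef2c libraries and are descriptive.

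The same order held among regions that Mef2c occupied. These regions were chosen with the Mef2c libraries that are compared, so their shares are descriptive. Of regions occupied with all 3 factors only, 98.7% were higher and 0 lower. Of those occupied with Mef2c alone only, 81.9% were lower and 0 higher. Over the 11330 tested regions occupied by Mef2c in at least 1 setting, 24.8% were higher and 45.2% lower. With both partners, 806 of 1390 (58%) were higher and 130 (9.35%) lower. With neither, 1109 of 7726 (14.4%) were higher and 4635 (60%) lower. Of 1540 regions with Tbx5 only, 728 (47.3%) were higher and 204 (13.2%) lower. Of 674 with Gata4 only, 171 (25.4%) were higher, near the share over all these regions, and 157 (23.3%) lower. The balance in the Gata4 only class depended on scaling, with 33.4% higher and 10.8% lower under library totals, against 25.4% and 23.3% here. In the fit with number 3 as the lone library with all 3 factors, whose spread again comes from the other group only, the shares were 54.6% higher with both partners and 57.8% lower with neither.

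Among regions that Mef2c occupied when alone, the partner classes differed in the same way. These regions were selected as high in the libraries with Mef2c alone, which favours lower calls, so their overall balance is a description. Of 9312 tested, 822 (8.83%) were higher and 5126 (55%) lower (median -0.77), where the lower share was 44% with library totals and 47.8% with scaling on regions occupied by no factor. Where neither partner was present, 66.6% of 6956 were lower, with a median of -1.07. Where both were present, 224 of 802 were higher and 130 lower, with a median of 0.19, and the others were not called. The sizes at these shared sites moved with the scaling: with library totals, 45.3% of the sites with both partners were higher and 7.86% lower, and with scaling on regions occupied by no factor 14.5% were higher and 10.2% lower. Sites with neither partner were more often lower than these under both scalings, at 55.4% and 59.7%.

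**Figure D2:**
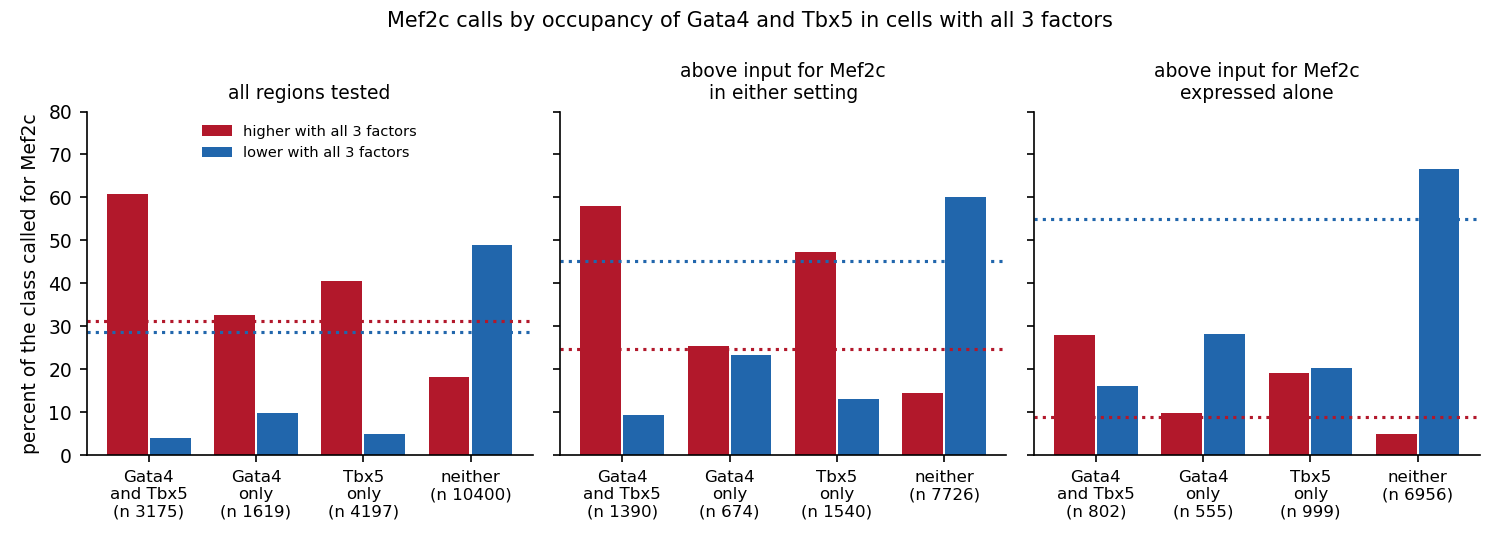
Percent of tested regions called higher or lower for Mef2c with all 3 factors, by occupancy of Gata4 and Tbx5 in the same cells, for all tested regions, for those above input for Mef2c in either setting, and for those above input for Mef2c alone; dotted lines are the percents over all classes. Over all tested regions, 60.9% of those with both partners were higher and 48.9% of those with neither were lower. Among regions above input for Mef2c alone, 27.9% with both were higher and 66.6% with neither were lower. The sets above input for Mef2c were chosen with the compared Mef2c libraries.

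The relation was graded. Regions occupied by Mef2c in at least 1 setting were sorted into quintiles of 2266 regions by the enrichment of each partner over input in cells with all 3 factors. From the lowest to the highest quintile of Gata4, the median Mef2c log2 fold change was -1.57, -1.01, -0.46, 0.07 and 0.51. From the lowest to the highest quintile of Tbx5, it was -1.65, -1.06, -0.40, 0.11 and 0.94. In the corner where both partners were lowest, 91.5% of 1447 regions were lower (median -1.83). In the corner where both were highest, 60.7% of 1227 were higher (median 1.15). Within the lowest quintile of Gata4 the median was 0.09 in quintile 4 of Tbx5 (64 regions) and 0.34 in its highest (17 regions). Within the lowest quintile of Tbx5 it was -0.80 in quintile 4 of Gata4 (47 regions) and -0.66 in its highest (6 regions). Enrichments of the partners and Mef2c occupancy share the inputs. Gata4, Tbx5 and Mef2c libraries of the same number in cells with all 3 factors may also share cultures. The regions were also chosen with the Mef2c libraries that are compared. The part of any of these in the gradient was not tested.

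**Figure D3:**
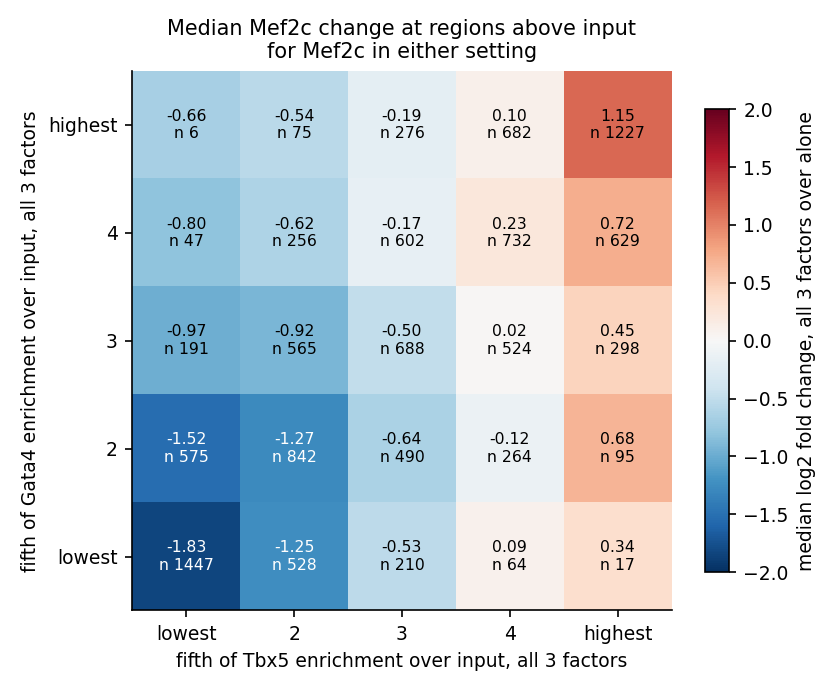
Median log2 fold change of Mef2c (all 3 factors over Mef2c alone) at regions above input for Mef2c in either setting, by quintiles of Tbx5 enrichment (x axis) and Gata4 enrichment (y axis) over input in cells with all 3 factors; n is the number of regions. The median goes from -1.83 where both partners are lowest to 1.15 where both are highest.

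Where each partner sat when expressed alone related less to the Mef2c change, within the limits of those libraries given below. Regions were sorted by where Gata4 and Tbx5 sat when each was expressed alone. Of 876 tested regions with both, Mef2c was higher at 218 (24.9%) and lower at 63 (7.19%; median 0.36). Of 4718 regions of Tbx5 only, 1776 (37.6%) were higher and 357 (7.57%) lower (median 0.58). Of 1679 regions of Gata4 only, 386 (23%) were higher and 217 (12.9%) lower (median 0.32). Of 12118 regions with neither, 3691 (30.5%) were higher and 4940 (40.8%) lower (median -0.37). Over all tested regions, 31.3% were higher and 28.8% lower, so regions with both or with Gata4 only had fewer calls in either direction. Over quintiles of enrichment at regions occupied by Mef2c, the medians ran from -0.66 to -0.26 for Gata4 alone and from -0.83 to 0.03 for Tbx5 alone. From the lowest to the highest quintile of Gata4 alone, the higher share went from 30 to 18.9% and the lower share from 50.6 to 32.7%. For Tbx5 alone, the higher share went from 22.6 to 32.3% and the lower share from 55.2 to 24.1%. One of the 4 Gata4-alone libraries, number 4, lay at the level of input, with a median log2 enrichment of 0.15 at the occupied higher regions where the others had -0.57, -0.77 and -0.65.

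The partners were also higher at regions where Mef2c was higher. At the 2814 higher regions occupied with all 3 factors, the median log2 enrichment of Mef2c over input was 1.15, 1.82, 2.05 and 2.08 with all 3 factors and 0.06, 0.31 and 0.27 with Mef2c alone. These values depend on how ChIP and inputs are scaled, and over all tested regions they averaged 0.88 ± 0.38 and 0.89 ± 0.02. By share of counts, Mef2c alone was under the inputs at the 2814 regions (5.25 ± 0.433% against 10.6 ± 0.471%). Gata4 averaged 0.50 ± 0.08 there with all 3 factors (SD, n = 5) and -0.46 ± 0.41 when alone (n = 4). Tbx5 averaged 0.96 ± 0.16 with all 3 factors (n = 4) and -0.08 ± 0.11 when alone (n = 3). For each factor, no sample alone reached the lowest sample with all 3 factors, where for Mef2c the choice of regions fixes this. For the partners this was not particular to these regions. Over all tested regions, Tbx5 had 0.21 to 0.49 with all 3 factors and 0 to 0.06 alone. Gata4 had 0.13 to 0.19 with all 3 factors and -0.32 to 0.13 alone over all tested regions. Of the higher regions of Mef2c that could be tested for Gata4, 2350 of 5264 (44.6%) were called higher for Gata4 and 57 lower, against 21.4% higher over all regions tested for both. Over all regions tested for Gata4, 31.7% were called, 16.5% higher and 15.2% lower. For Tbx5, 2151 of 5159 (41.7%) were called higher and 327 lower, against 22.1% higher over all regions tested for both. Over all regions tested for Tbx5, 33.7% were called, 18.8% higher and 14.9% lower. These comparisons share no library with that of Mef2c.

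At the lower regions the partners were low in either setting. At the 5126 lower regions occupied by Mef2c alone, the median log2 enrichment of Mef2c was 0.56, 1.42, 2.06 and 1.62 with all 3 factors and 3.19, 3.18 and 3.19 with Mef2c alone. The samples with all 3 factors ranged widely but all lay below those with Mef2c alone. Over all tested regions, Mef2c averaged 0.88 ± 0.38 with all 3 factors and 0.89 ± 0.02 alone. At these lower regions, Gata4 averaged -0.51 ± 0.29 with all 3 factors and -0.42 ± 0.40 when alone. Tbx5 averaged -0.56 ± 0.14 with all 3 factors and -0.53 ± 0.07 when alone. Neither partner was above input at the median of these regions.

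Inputs gave no calls. Cells with all 3 factors and cells with a single factor differed in input at 0 of 853 tested regions (0% called; edgeR, with 43 at an unadjusted p under 0.05; DESeq2 also called 0, with 470 at an unadjusted p under 0.05). The median input log2 fold change was 0.03 at the higher and 0.06 at the lower Mef2c regions that could be tested. Few regions passed the count filter at the depth of the inputs. With no filter, 30815 regions were tested, of which 0 were called and 1686 had an unadjusted p under 0.05.

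Single regions show the levels behind these counts. Regions were named by size of change within each partner class, with 3 per class and direction. The Mef2c values are CPM, counts scaled to a common library size over the 7 Mef2c libraries. Genes near the regions are not given, since no mm9 annotation was used here. Among regions with both partners, the largest higher change was at chr1:182800091-182800558, with 133, 140, 158 and 139 CPM with all 3 factors and 6.53, 3.7 and 2.55 CPM with Mef2c alone. Every sample with all 3 factors was above 100 CPM and every sample with Mef2c alone was below 10. The log2 fold change was 5.04 ± 0.39 (SE; edgeR adjusted p = 1.04e-09). Gata4 at this region averaged 96.3 ± 13.8 CPM with all 3 factors and 28 ± 6.57 CPM alone, Tbx5 averaged 187 ± 30.9 and 74.1 ± 13.6 CPM, and inputs had 24.2 ± 13.2 CPM (SD; the values of Gata4, Tbx5 and inputs were scaled over all samples, and their levels are not on the scale of the Mef2c values). The regions chr12:21174139-21174561 and chr14:73746875-73747567 followed with log2 fold changes of 4.92 and 4.87. All of the 3 were above input with all 3 factors only.

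Higher regions with a single partner, or with none, had 33.2 CPM or more with all 3 factors in the examples that follow. Number 4 was lower at chr16:43469407-43469767 and chr12:88655886-88656247, also named with Gata4 only, at 20.7 and 19.6 CPM. At chr2:44815746-44816003, with Tbx5 only, Mef2c had 85.4, 97.5, 154 and 131 CPM with all 3 factors and 2.61, 6.16 and 3.83 CPM with Mef2c alone (log2 fold change 4.78 ± 0.42, edgeR adjusted p = 4.38e-09). At chr11:58797502-58797892, also with Tbx5 only, Mef2c had 156, 277, 230 and 153 CPM with all 3 factors and 7.84, 6.16 and 11.5 CPM alone. Tbx5 itself was at a like level there in both settings, with 188 ± 52.2 CPM with all 3 factors and 178 ± 16.5 CPM when alone, and was above input in both. With Gata4 only, chr16:4127453-4127811 had 42.7, 81.4, 33.2 and 80 CPM with all 3 factors and 1.31, 4.93 and 6.38 CPM with Mef2c alone (log2 fold change 3.80 ± 0.50, edgeR adjusted p = 6.59e-07). The groups did not overlap, and numbers 2 and 4 were the lower of those with all 3 factors. Gata4 was there in both settings too, at 59.2 ± 19 CPM with all 3 factors and 97.5 ± 64.6 CPM when alone. Of the higher regions with neither partner, the largest change was at chr2:155109147-155109347, with 92.9, 107, 50.4 and 93.9 CPM with all 3 factors and 6.53, 1.23 and 5.1 CPM with Mef2c alone (log2 fold change 4.30 ± 0.46, edgeR adjusted p = 4.35e-08).

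The lower regions had a median log2 fold change of -0.82 with both partners, -0.88 with Gata4 only, -0.83 with Tbx5 only and -1.45 with neither, values that describe the called regions. Those named came from classes of unequal size. At chr3:88296851-88297195, the largest lower change with both partners, Mef2c had 72.8, 101, 113 and 104 CPM with all 3 factors and 248, 218 and 237 CPM with Mef2c alone (log2 fold change -1.23 ± 0.22, edgeR adjusted p = 4.31e-05). The groups did not overlap, and Mef2c was above input in both settings. With Gata4 only, chr15:83263223-83263429 had 20.1, 21.2, 30.2 and 18.4 CPM with all 3 factors and 71.9, 60.4 and 63.8 CPM alone (-1.52 ± 0.31, edgeR adjusted p = 0.00015). With Tbx5 only, chr7:52330875-52331077 had 22.6, 39, 26.7 and 33.9 CPM with all 3 factors and 95.4, 81.3 and 79.1 CPM alone (-1.44 ± 0.29, edgeR adjusted p = 0.000133). With neither partner, chr5:10444312-10444677 had 17.6, 27.1, 26.1 and 8.16 CPM with all 3 factors and 250, 408 and 380 CPM alone (-4.16 ± 0.32, edgeR adjusted p = 9.25e-10). Mef2c was above input there with Mef2c alone only. Of the 3760 lower regions that met the naming rule, 3319 had neither partner, against 804 of the 2269 higher regions.

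**Figure D4:**
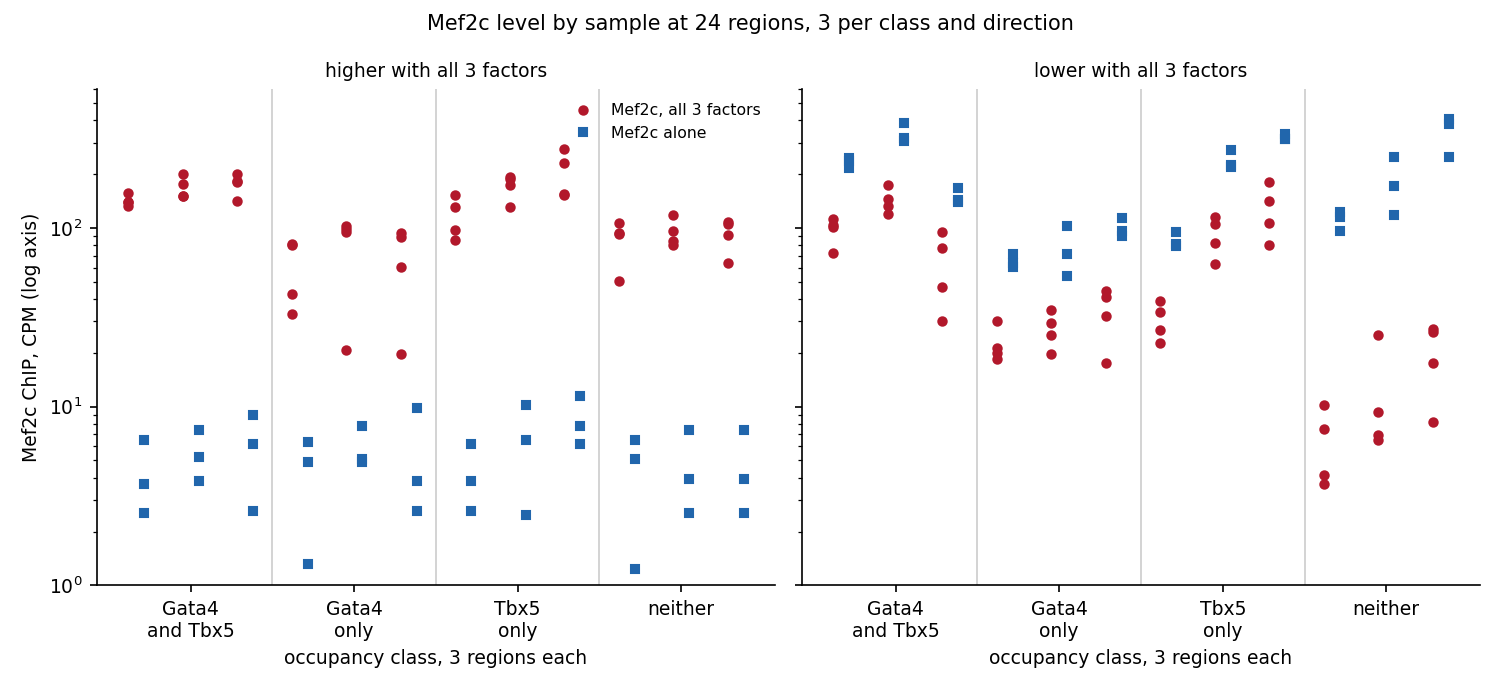
CPM of Mef2c ChIP by sample (log axis) at the 3 regions with the largest change in each partner class and direction; red circles are samples with all 3 factors (4) and blue squares samples with Mef2c alone (3). The lower regions with neither partner reach -4.26 on the log2 scale, and those with a partner stay between -1.52 and -1.21.

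With 1 exception, the named regions with most Mef2c were above input in both settings. The region with most Mef2c in cells with all 3 factors, chr16:43456604-43457112, had 655, 611, 451 and 351 CPM with all 3 factors and 639, 754 and 688 CPM with Mef2c alone. The groups overlapped, and the change was not called (log2 fold change -0.43 ± 0.19, edgeR adjusted p = 0.0565). The second, chr3:151805873-151806601, had 690, 554, 454 and 340 CPM with all 3 factors and 772, 777 and 800 CPM alone, and was called lower (-0.63 ± 0.19, adjusted p = 0.00678), a call lost with library totals (-0.28) and without number 5 of all 3 factors (-0.38). Among the 5 highest with all 3 factors, chr15:73166660-73167421 alone was called higher, at 319, 483, 432 and 400 CPM with all 3 factors against 188, 212 and 195 CPM alone (1.05 ± 0.20, adjusted p = 8.41e-05), a call lost with no filter (0.65) and in 1 fit of all ChIP groups (0.66). Gata4 averaged 350 ± 58.5 CPM there with all 3 factors and 128 ± 57.6 CPM when alone. Of the highest regions with Mef2c alone, chr10:112066688-112067591 had 171, 317, 406 and 268 CPM with all 3 factors and 700, 760 and 737 CPM alone (-1.32 ± 0.21, adjusted p = 8.98e-06). One high region, chrX:166417917-166418386, was high in every library including inputs (373 ± 144 CPM). Its Mef2c level was 381 ± 101 CPM with all 3 factors and 353 ± 40.8 CPM alone, on the scale of the Mef2c libraries, and the test called it above input with Mef2c alone only.

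Mef2c changes were shared between close neighbours. Of 474 pairs of neighbouring tested regions under 1 kb apart with both called, 92.4% changed in the same direction. The share was 74% at 1 to 5 kb, 66.7% at 5 to 20 kb, 59.7% at 20 to 100 kb and 58.4% beyond. Regions under 1 kb apart can share fragments of the sheared chromatin and are not independent. Unbroken runs of at least 5 tested regions called the same way, with gaps of up to 50 kb, numbered 55 for higher and 6 for lower calls. The longest higher runs had 8 regions, at chr10:96095987-96171438, chr15:38773798-38832167 and chr2:168410374-168512461. Of their 8 regions, 6, 7 and 4 held Gata4 or Tbx5. The run on chromosome 15 spanned 58.4 kb, with log2 fold changes of 1.62 to 2.12. The longest lower run, chr6:43303659-43431662, had 6 regions over 128 kb (-2.99 to -0.85), and 0 of them held Gata4 or Tbx5. Over all higher regions 68.6% held Gata4 or Tbx5, and over all lower regions 8.86%. These runs were chosen after their values were seen.

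**Figure D5:**
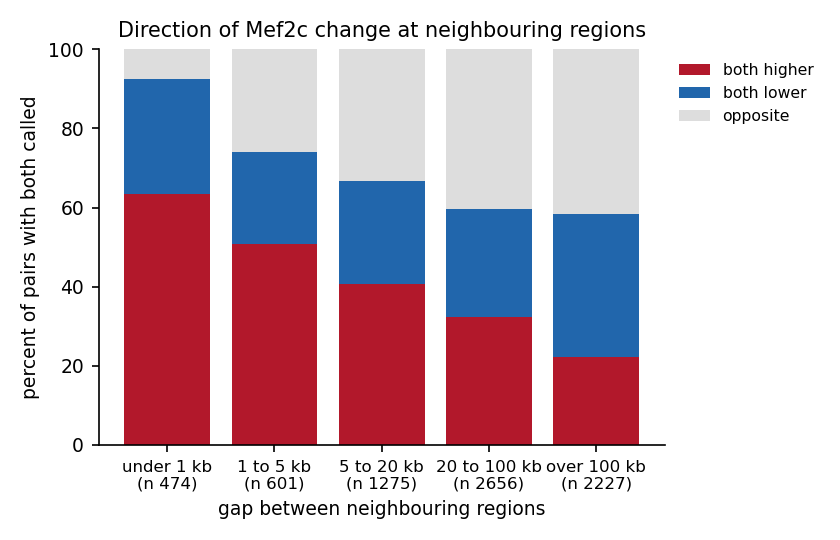
Direction of the Mef2c change at neighbouring tested regions that were both called, by the gap between them, as percent of pairs; n is the number of pairs. The share of pairs with the same direction goes from 92.4% under 1 kb to 58.4% over 100 kb, and pairs that were both higher outnumber pairs that were both lower up to 100 kb.

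The Mef2c change differed from that of its partners at a minority of regions. The difference between the Mef2c effect and the Gata4 effect of the setting was called at 4142 of 30663 regions (13.5%; edgeR, 1 fit of all ChIP groups), higher for Mef2c at 1350 (4.4%) and lower at 2792 (9.11%). Against Tbx5 it was called at 4070 regions (13.3%), higher for Mef2c at 1551 (5.06%) and lower at 2519 (8.22%). With the replicate number within each setting as a block, the counts were 10023 and 7574. That block also pairs libraries of factors alone, where same-numbered libraries were not correlated (r of deviations -0.024 to 0.017). The split depended on scaling: 32.6% of the calls against Gata4 and 38.1% of those against Tbx5 were higher for Mef2c, but 76.1% and 76.4% with library totals, where the median difference of all regions moved to 0.65 and 0.56. At chr16:76103164-76103419 the factors moved in opposite directions: Mef2c averaged 31.5 ± 5.9 CPM with all 3 factors and 5.49 ± 1.36 CPM alone, whereas Tbx5 averaged 32.8 ± 14.7 CPM with all 3 factors and 137 ± 29.2 CPM alone (difference of log2 fold changes 4.20 ± 0.61, edgeR adjusted p = 2.54e-05). At chr8:45929595-45929879 Mef2c averaged 12 ± 8.84 CPM with all 3 factors and 180 ± 67.3 CPM alone, whereas Gata4 (12.4 ± 4.45 and 8.74 ± 3.41 CPM) and Tbx5 (12.2 ± 7.21 and 10.4 ± 5.49 CPM) were low in both settings. The differences there were -5.05 ± 0.62 against Gata4 (adjusted p = 1.49e-06) and -4.73 ± 0.69 against Tbx5 (adjusted p = 2.54e-05).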

How the data were processed

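The deposited values were raw counts of reads in each region, in 1 table. FastQC, Bowtie2 2.2.4, featureCounts and mm9 are named in the submitters' processing notes. How the regions were chosen is not given in the sources used here, and neither are duplicate handling and aligner settings, so counts of changed regions refer to this set of regions. Groups came from the labels, which speak of biological replicates; no label names separate animals or cultures, so p-values measure the spread between these libraries.

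Comparisons used edgeR 4.0.16 (R 4.3.3; glmQLFit with robust estimation, glmQLFTest, TMM scaling, filterByExpr with a minimum count of 10 and total of 15), two-sided, with Benjamini-Hochberg adjustment over all regions tested and a threshold of 0.05. The fit of the setting held the 7 Mef2c libraries. The SE is the log2 fold change divided by the square root of F. Enrichment is log2 CPM (prior count 2) over the mean of the inputs. Libraries that agree within sampling noise by a chi-square test were each taken as 1 sample after summing, namely Gata4 numbers 1 and 6, inputs 1 and 3, and inputs 2, 4 and 5, in cells with all 3 factors. All Mef2c libraries differed. Named regions were called, lay above the median level of tested regions, and had no overlap of samples, at least 10 counts summed in each group and the 3 largest changes per partner class and direction. The 5 highest levels per setting, the 5 highest in both among regions not called, and the 2 largest differences from each partner per direction were added. The test recovered known changes in simulated data in which few regions changed, equally often in each direction. In the data here most tested regions were called, so the simulation cannot judge the scaling or the split of calls by direction. The comparison, classes and rules were chosen with earlier results of these data known. DESeq2 1.42.0, other scalings, no filter, a replicate block and left-out libraries were alternatives. In cells with all 3 factors, same-numbered libraries of Mef2c and Gata4 were correlated (r of deviations 0.12 to 0.37), as were those of Mef2c and Tbx5 (0.21 to 0.53). Where factors were alone, they were not (-0.024 to 0.017). Libraries of different numbers were not compared, and the labels do not state a pairing, so whether the numbers mark shared cultures was not tested. No mm9 genome or annotation was used here, so genes, motifs and sequences are not given.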

Additional observations from a re-analysis of the deposited data

Results flagged for a closer look

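At chr16:43469407-43469767, a higher region with Gata4 only, number 4 of the Mef2c libraries with all 3 factors had 20.7 CPM, far from the other 3 at 95.4 to 102 CPM. It was still above all libraries with Mef2c alone (7.84, 4.93 and 5.1 CPM). At chr8:45929595-45929879, a lower region with neither partner, number 2 had 25.1 CPM, where the others with all 3 factors had 6.52 to 9.33 CPM; it is the shallowest Mef2c library. These were 2 of 62 sets of values examined, and chance gives about 1 in 20.

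The change of Mef2c between settings differed from that of Gata4 at 4142 regions and from that of Tbx5 at 4070 regions by edgeR's test of the difference. Against Gata4, the named differences of log2 fold changes were 4.38 at chr2:44815746-44816003, 4.16 at chr16:4127453-4127811, -5.05 at chr8:45929595-45929879 and -4.72 at chr15:24563996-24564198. At the first, Mef2c averaged 117 ± 31.4 CPM with all 3 factors and 4.2 ± 1.8 CPM alone, whereas Gata4 averaged 18.6 ± 5.3 and 19.7 ± 19.7 CPM. Against Tbx5, they were 4.20 at chr16:76103164-76103419, 4.14 at chr11:58797502-58797892, -4.73 at chr8:45929595-45929879 and -4.48 at chr6:81132428-81132768. At the last, Mef2c averaged 11.1 ± 4.61 CPM with all 3 factors and 127 ± 27.5 CPM alone, whereas Tbx5 averaged 13 ± 4.97 and 8.75 ± 5.76 CPM.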

How the results depend on the processing

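The count of Mef2c calls stayed within 1.5 times of 11648 under all alternatives run, from 9732 to 12020 when a library was left out. The calls themselves changed more. Higher calls were kept at 4255 of 6071 regions with no filter, 4511 of 6070 with DESeq2 and 4100 of 6070 in 1 fit of all ChIP groups. Lower calls were kept at 5577 of 5577, 5492 of 5577 and 5570 of 5572. With library totals, 6071 of 6071 higher and 4256 of 5577 lower calls were kept. The share of higher calls was 44.7% with DESeq2, 39.9% in 1 fit of all ChIP groups, 51.5% with the replicate block and 51.3% with scaling on unoccupied regions; the median of all regions was 0.47 with library totals and -0.24 with no filter. Mef2c numbers did not pair between the settings (r of 0.0077 and -0.0044). Calls against input with all 3 factors (17159) were 10131 with the replicate block and 11361 to 20371 with a library left out, the lowest without input 2, and those with Mef2c alone (20369) were 13031 with the 3 single-factor inputs and 14149 to 20882. Higher calls against input fell to 31.4% of calls with all 3 factors and 24% with Mef2c alone under library totals, against 51.8% and 45.8%. Differences from Gata4 were called at 10023 regions with the replicate block and at 2555 to 6552 with a library left out (2567 without Gata4 alone 1, 6552 without Gata4 alone 4, 2555 and 2606 without Mef2c alone 1 and 3), and from Tbx5 at 7574 and at 2446 to 4866 (2446 without Tbx5 alone 1). The cause of these shifts was not tested. Input differences stayed at 0 with each input left out.

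The class medians, relative to all regions, kept their sign. A change of scaling moves all regions nearly alike and largely cancels in these differences, so it could hardly turn a sign. Under the alternatives, 21 class values moved by at least the SD between the Mef2c samples with all 3 factors, and 73 did not. With occupancy at least 2-fold above input the class medians were 1.28 with both partners, 0.60 with Tbx5 only and -0.65 with neither. Leaving out libraries gave 0.96 to 1.21, 0.28 to 0.38 for Gata4 only, 0.44 to 0.56 and -0.90 to -0.73. For classes of factors alone it gave 0.12 to 0.34 with both, 0.12 to 0.22 with Gata4 only, 0.36 to 0.52 with Tbx5 only and -0.60 to -0.45 with neither, and with only inputs of the same cells 0.73 for Tbx5 only and -0.04 for neither; Gata4 alone then had no region above input, so the other classes had no value. Chosen after the data were seen, library totals for occupancy and comparison left 1973 higher regions occupied with all 3 factors (26.1% of 7566), of which 539 held both partners, and 2996 lower regions occupied by Mef2c alone. Of the named regions under all alternatives, 5 values lost and 14 gained a call, with 0 reversed. At chr15:73166660-73167421 the call was lost with no filter (0.65) and in 1 fit of all groups (0.66), and at chr3:151805873-151806601 also with the replicate block (-0.35). The shallow inputs (97474 to 301678 counts) limit what can be called above background.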

Other observations

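The chromosomes differed in the balance of Mef2c calls. On chromosome 13, 40.2% of 903 tested regions were lower and 25.8% higher with all 3 factors, and the median log2 fold change was -0.28. On chromosome 11, 21.5% of 1310 were lower and 35% higher, with a median of 0.37. The X chromosome had 36.1% lower and 29.1% higher of 385. No test was made of these differences.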
